A study of Mus musculus with 12 samples.

Results

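Smooth muscle contractile genes are described here across 4 treatment groups of mouse colon. The 10 members are Myh11, Acta2, Actg2, Tagln, Cnn1, Des, Myl9, Lmod1, Synm and Smtn. They were found by their symbols in the deposited count table and make up 10 of its 54532 genes. All 10 passed the filter on low counts and are among the 16904 genes tested.

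RNA was sequenced from the colon of 12 male wild-type C57BL/6J mice, 5 weeks of age per the labels. Each of the 4 groups held 3 libraries. The p-values of the main test rest on the spread between libraries, estimated over all 4 groups together. The control group was not treated, and the model group had acute colitis induced with DSS (dextran sodium sulfate), which damages the lining of the colon. The Rhy group received DSS and rhynchophylline (Rhy), an alkaloid. Labelled Rhy doses were 2, 4 and 8 mg/kg, and which of them the sequenced mice had was not stated. The DXM group received DSS and the glucocorticoid dexamethasone at 4 mg/kg. The RNA-Seq methods of the paper do not name a DXM group, and whether all groups were sequenced in the same run was not stated. Total counts ranged from 14346478 to 17749716 per library.

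Smooth muscle shortens when myosin pulls on actin filaments, after calcium and myosin light chain kinase lead to phosphorylation of the regulatory light chain. In the colon, this machinery fills the muscle layers of the wall, the muscularis mucosae and the walls of blood vessels. Serum response factor, together with the coactivator myocardin, is known to switch on many of its genes through a short DNA element called the CArG box.

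Promoter stretches of members are shown as a description, and their part in the members' levels was not tested. RefSeq promoters (build GRCm38.p6) were matched by symbol for 7 of the 10 members, namely Acta2, Cnn1, Des, Myl9, Lmod1, Synm and Smtn. The 250 bases before the start were searched for the CArG box on both strands. An exact match was present in 1 of these 7 members, Myl9, and in 1.47% of all promoters (482 of 32851). With 1 differing base allowed, matches were present in 4 of the 7, Acta2, Myl9, Lmod1 and Synm, and in 18.6% of all promoters (6117 of 32851). A match is a description of letters, not a shown binding site. The Acta2 stretch is chr19:34255374-34255482 on the minus strand, and the Myl9 stretch is chr2:156775278-156775399 on the plus strand. The Lmod1 stretch is chr1:135324599-135324683 on the plus strand, and the Synm stretch is chr7:67759947-67759992 on the minus strand. The stretch of Srf, which encodes serum response factor itself, is chr17:46556190-46556269 on the minus strand and holds 2 exact matches. Capitals mark CArG box matches, with up to 1 differing base in the members and exact ones only in Srf.
Acta2: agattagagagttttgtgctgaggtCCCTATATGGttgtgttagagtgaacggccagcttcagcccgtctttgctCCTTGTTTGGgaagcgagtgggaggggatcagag
Myl9: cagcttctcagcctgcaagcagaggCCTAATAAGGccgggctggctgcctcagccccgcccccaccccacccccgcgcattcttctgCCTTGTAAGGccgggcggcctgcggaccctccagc
Lmod1: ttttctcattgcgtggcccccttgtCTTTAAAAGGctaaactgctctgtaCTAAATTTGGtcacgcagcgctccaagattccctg
Synm: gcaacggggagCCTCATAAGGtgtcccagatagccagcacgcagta
Srf: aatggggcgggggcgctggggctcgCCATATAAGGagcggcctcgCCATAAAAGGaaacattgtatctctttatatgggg

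The members lie on 8 chromosomes of build mm10, and those that share a chromosome lie far apart. Des starts at chr1:75360329 against 135324807 for Lmod1, and Cnn1 at chr9:22099216 against 45929619 for Tagln. Myh11 (ENSMUSG00000018830) lies at chr16:14194535-14291372 on the minus strand, and Acta2 (ENSMUSG00000035783) at chr19:34241090-34255336 on the minus strand. Actg2 (ENSMUSG00000059430) lies at chr6:83512905-83536265 on the minus strand, and Lmod1 (ENSMUSG00000048096) at chr1:135324807-135368065 on the plus strand. Levels of the members were compared between genes per length, in the deposited FPKM (fragments scaled by gene length and library size). The ratios between members given further on, such as that of the actin counts, are an exception. The mean over 12 libraries was 694 FPKM for Actg2, 648 FPKM for Myl9 and 577 FPKM for Acta2, so both smooth muscle actins and the myosin light chain led. Des followed at 281 FPKM, Cnn1 at 278 FPKM and Myh11 at 175 FPKM. Smtn stood at 42.6 FPKM, Synm at 15.7 FPKM, Lmod1 at 11.2 FPKM and Tagln at 9.47 FPKM.

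The level of Tagln, which encodes the actin-binding protein transgelin, is uncertain. In the GENCODE M21 annotation, 67.9% of its exon bases also lie in exons of genes on the other strand, 62.4% in Gm48529 and 5.43% in Pcsk7. Whether the counting used strand was not stated, and Tagln held only 174 to 551 counts per library. The overlapping share was 16.3% for Smtn, 6.43% for Synm and 5.86% for Des, and 0 for the other 6 members. Acta2 and Actg2 encode closely related proteins, but their longest transcripts shared no run of 50 bases with each other.

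Several libraries stood apart. Model 1 and model 2 were nearly alike. The chi-square per degree of freedom between their counts was 2.85, against 53.6 to 266.5 for the other pairs within a group. Whether model 1 and model 2 are separate samples was not tested, and if not, the spread within model is understated. Hoxb13, a homeobox gene of the distal colon, stood at 0.165 CPM in control 3, 1.49 CPM in model 3 and 0 CPM in Rhy 1, and at 72.0 to 316 CPM in the other 9 libraries. CPM are counts scaled to a common library size with TMM factors. Hoxd13, of the same kind, stood at 0 to 0.342 CPM in those 3 libraries and at 5.54 to 169 CPM in the others. No DXM library was low in either gene, so the low libraries are unevenly spread over the groups. The share of counts from mitochondrially encoded genes ranged from 6.33% in control 3 to 25.7% in DXM 1. The part of these differences in the results was not tested, beyond the values given from alternative fits. These fits left out those libraries or mitochondrially encoded genes, had a term for libraries low in Hoxb13, or summed model 1 and model 2.

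Myh11 encodes the smooth muscle myosin heavy chain. It stood at 1057.3, 1029.5 and 962 CPM in control, 1265, 1228 and 916 CPM in model, 1304, 1322 and 1573 CPM in Rhy, and 1909, 1372 and 2206 CPM in DXM. Every Rhy and DXM library was above every control and model library. Acta2 encodes smooth muscle alpha-actin. It stood at 1136, 686 and 518 CPM in control, 837, 856 and 666 CPM in model, 1006.5, 1190.1 and 1139 CPM in Rhy, and 1641, 1025 and 1808 CPM in DXM. Rhy and DXM lay above model throughout, but control 1 lay among the Rhy libraries.

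Actg2 encodes the gamma-actin of enteric smooth muscle. It stood at 1275, 618 and 595 CPM in control, 865, 884 and 748 CPM in model, 1402.5, 1501 and 1356 CPM in Rhy, and 1446, 813 and 1644 CPM in DXM. The Rhy libraries were close together and above all control and model libraries, while DXM 2 lay within the model range. Myl9 encodes the regulatory light chain of myosin. It stood at 851, 527 and 393 CPM in control, 715, 689 and 564 CPM in model, 859.6, 834 and 777 CPM in Rhy, and 1190.2, 681 and 1079.9 CPM in DXM. Again Rhy lay above model, and DXM 2 lay within the model range.

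Lmod1 encodes leiomodin, which nucleates actin filaments. It stood at 43.9, 33.4 and 34.5 CPM in control, 41.8, 44.8 and 38.3 CPM in model, 38.6, 35.8 and 46.5 CPM in Rhy, and 57.8, 48.8 and 75.7 CPM in DXM. All DXM libraries were above the other 9. Smtn encodes smoothelin, an actin-bound protein of contractile cells. It stood at 237, 131 and 98.7 CPM in control, 184, 166 and 131 CPM in model, 191, 178 and 181 CPM in Rhy, and 288, 197 and 293 CPM in DXM. DXM lay above model and Rhy, and control 1 lay within the DXM range.

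Des encodes desmin, the intermediate filament of muscle. It stood at 1659, 677 and 616 CPM in control, 923, 882 and 652 CPM in model, 919, 1267 and 1095 CPM in Rhy, and 1281, 1027 and 1833 CPM in DXM. Only DXM 3 was above control 1. Synm encodes synemin, a partner of desmin, and ranged most widely, from 63.8 CPM in control 2 to 290.5 CPM in DXM 3. Cnn1 encodes calponin, which binds actin and slows myosin, and ranged from 424 CPM in control 2 to 1294 CPM in DXM 3. Tagln ranged from 10.9 CPM in control 3 to 29.4 CPM in DXM 1.

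By group mean, DXM was the highest group for 9 of the 10 members and Rhy for Actg2. Control was the lowest for 9 of the 10 and model for Des. Control and model were near ties for some members, such as Acta2 at 780 and 786 CPM and Actg2 at 829 and 833 CPM. In DESeq2, 5 of 10 members were higher in model than in control, against 9 in the main fit. The summed CPM of the members was 5082 ± 1934 in control, 5177 ± 745 in model, 7107 ± 452 in Rhy and 8502 ± 2345 in DXM (SD, n = 3). Control 1 carried much of the control spread: Des was 2.57 times and Cnn1 2.14 times the mean of control 2 and 3, but Myh11 only 1.06 times. DXM 2 was the lowest DXM library for 9 of the 10 members, at 0.526 times the mean of DXM 1 and 3 for Actg2 and 0.731 times for Lmod1, while Synm was lowest in DXM 1. CPM are shares of all counts from whole tissue. Changes in muscle cells, in RNA per muscle cell and in RNA of other cells cannot be told apart.

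**Figure D1:**
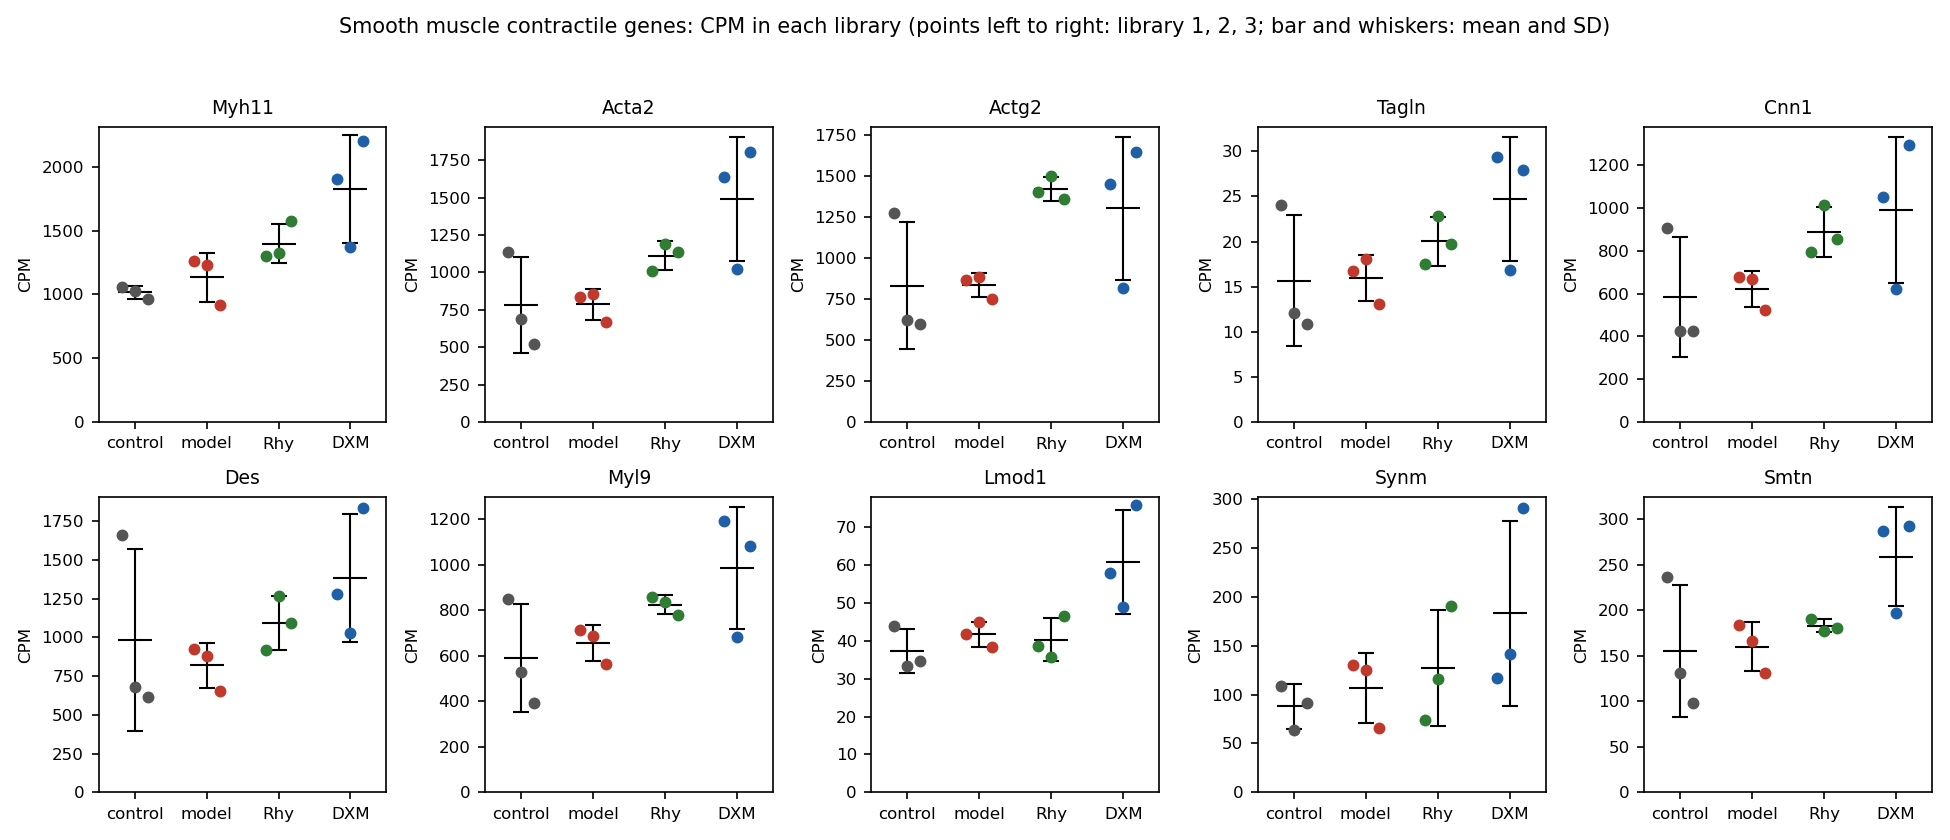
Level of each member in CPM in each of the 12 libraries by group, with group means and SD. DXM has the highest mean for 9 of 10 members, and control 1 stands above control 2 and 3.

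Model against control addresses what DSS colitis does to the tissue. Every member differed by less than its SE, and their median log2 fold change was 0.065, against 0.0064 over all genes. Des had the lowest value at -0.26 ± 0.37 and Synm the highest at 0.29 ± 0.42 (SE, n = 3 per group). By edgeR's two-sided quasi-likelihood test, 0 of 10 members had an unadjusted p under 0.05, against 9.62% of all genes, and 0 lay wholly above control in model, against 10.4%. The adjusted p was under 0.05 for 0 of 16904 genes in the main edgeR fit, with 1626 unadjusted. It was under 0.05 for 46 genes in DESeq2 and 0 in limma on log2(FPKM + 1) or on log2(FPKM + 0.1). Without control 1 the members' median was 0.46 and Des stood at 0.34, and without control 3 the median was -0.17. Synm stood at 0.10 without control 2.

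Rhy against model addresses what rhynchophylline added under DSS. Higher values were seen for 9 of 10 members, with a median log2 fold change of 0.33, against -0.015 over all genes; markers of other cell types were higher too, as described further on. Actg2 had the largest, 0.77 ± 0.33 (SE, n = 3 per group), from means of 833 to 1419.9 CPM. Cnn1 followed at 0.51 ± 0.34 and Acta2 at 0.50 ± 0.31, while Lmod1 stood at -0.046 ± 0.20. All 10 members were higher without Rhy 2, with Lmod1 at 0.033, and 8 without Rhy 3, with Synm at -0.17. In 5 members, Myh11, Acta2, Actg2, Cnn1 and Myl9, every Rhy library was above every model library, against 5.51% of all genes. For each of these 5 the exact two-sided permutation test gave 0.1, the smallest value that 3 against 3 allows.

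Of the 10 members, only Actg2 had an unadjusted p under the 0.05 threshold (0.0391) by edgeR's quasi-likelihood test, against 3.72% of all genes, so this count is near the background. The count of genes with an adjusted p under 0.05 was 0 of 16904 in the main edgeR fit, with 628 unadjusted. It was 5 in DESeq2, with no member among them, 0 in limma on log2(FPKM + 1) and 2 in limma on log2(FPKM + 0.1). With any single model or Rhy library left out, or with model 1 and model 2 summed, the count of 1 became 0, while the log2 fold change of Actg2 stayed at 0.73 to 0.81. Without control 3, model 3 and Rhy 1, the Hoxb13-low libraries, it was also 0, with Actg2 at 0.74 ± 0.41 from fewer libraries. With all 12 libraries and a term for the Hoxb13-low ones it was 1, with Actg2 at 0.78 ± 0.33.

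DXM against model addresses what dexamethasone added under DSS. All 10 members had higher means, with log2 fold changes from 0.55 for Lmod1 to 0.92 for Acta2 and a median of 0.68, against -0.015 over all genes. Markers of fibroblasts (median 1.14), endothelium (0.86) and pericytes (0.83) had higher medians than the members in the same comparison. Without DXM 3 all 10 stayed above 0, but Synm went from 0.77 to 0.27, Lmod1 to 0.36, Cnn1 from 0.67 to 0.43 and Des from 0.75 to 0.50. Acta2 stood at 0.92 ± 0.31, Myh11 at 0.69 ± 0.24, Smtn at 0.69 ± 0.30 and Lmod1 at 0.55 ± 0.20 (SE, n = 3 per group). These 4 had unadjusted p-values of 0.0115, 0.0132, 0.0371 and 0.0174 in edgeR's quasi-likelihood test, 4 of 10 members against 7.69% of all genes. In 5 members, those 4 and Des, every DXM library was above every model library, against 10.4% of all genes, with an exact permutation value of 0.1 each.

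No member passed the adjusted threshold in DXM against model, and the smallest adjusted value in edgeR was 0.622. The count over all genes was 0 of 16904 in the main edgeR fit, with 1300 unadjusted. It was 53 in DESeq2, with no member among them, 0 in limma on log2(FPKM + 1) and 2 in limma on log2(FPKM + 0.1). The count of 4 members depended on single libraries: it was 9 without control 1, 7 without control 3, 2 without model 3, 9 without DXM 2 and 1 without DXM 3. Smtn dropped out, leaving 3, without model 2 or with the near-alike model 1 and model 2 summed. Without the 3 Hoxb13-low libraries it was 1, Acta2, and the members' median was 0.57. With a term for those libraries it was 3, Myh11, Acta2 and Lmod1, and the median was 0.56. It was 8 with only both groups compared in the fit, and 8 with genes of any count.

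**Figure D2:**
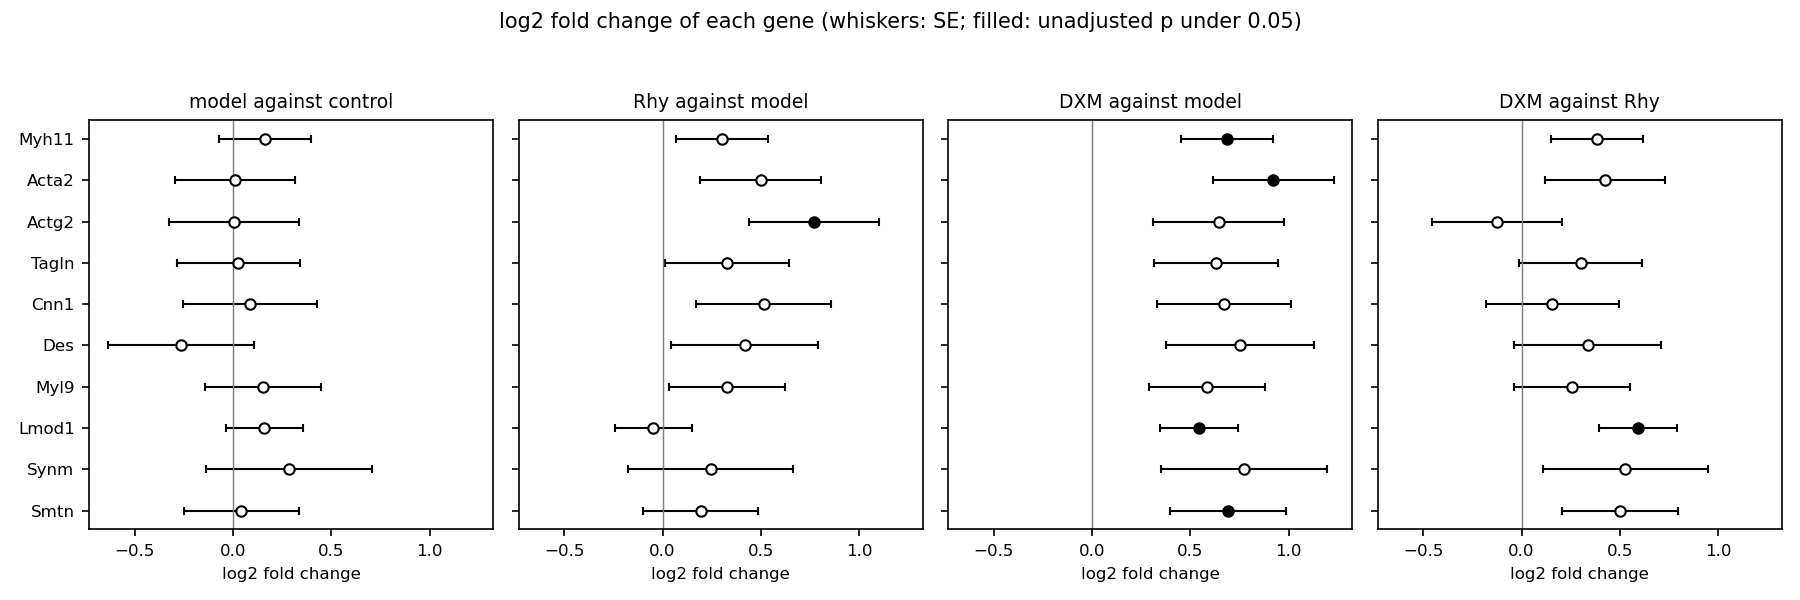
Log2 fold change of each member with its SE in DXM against model and DXM against Rhy, and in Rhy against model and model against control, filled where the unadjusted p was under 0.05. In DXM against model all 10 values are positive, from 0.55 to 0.92.

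Both treated groups were also set against control, with the same control libraries in each. In Rhy against control the median was 0.47, against -0.027 over all genes, and Actg2 had the largest value, 0.78 ± 0.33. Actg2 alone had an unadjusted p under the 0.05 threshold (0.0380) by edgeR's quasi-likelihood test, 1 of 10 members against 11.6% of all genes. Myh11 and Actg2 lay wholly above control, 2 of 10 against 7.5%. No gene passed the adjusted threshold in the main edgeR fit, with 1953 unadjusted, 33 adjusted in DESeq2 and 0 in either limma fit. The count of 1 was 7 without control 1, and 0 without control 2, control 3 or any single Rhy library or without the Hoxb13-low libraries, and 1 with a term for them. The median of 0.47 was 0.78 without control 1, 0.27 without control 3 and 0.29 without the Hoxb13-low libraries.

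In DXM against control the median was 0.74, against 0.056 over all genes, and all 10 members were higher, beside a fibroblast marker median of 0.76. Synm stood at 1.06 ± 0.42, Acta2 at 0.93 ± 0.31, Myh11 at 0.85 ± 0.24 and Lmod1 at 0.71 ± 0.20 (SE, n = 3 per group). Unadjusted p-values were under 0.05 for 7 of 10 members by edgeR's quasi-likelihood test, all but Actg2, Tagln and Des, against 18.9% of all genes. Myh11, Lmod1 and Synm lay wholly above control, 3 of 10 against 9.77%. No gene passed the adjusted threshold in the main edgeR fit, with 3189 unadjusted, 1058 adjusted in DESeq2 and 0 in either limma fit. DESeq2 gave Myh11 an adjusted p of 0.0142 and Lmod1 an adjusted p of 0.0471, and no other member passed there. The count of 7 was 3 without control 2, control 3 or DXM 3, 4 without DXM 1, 10 without control 1, 3 without the Hoxb13-low libraries and 5 with a term for them. The median of 0.74 was 1.10 without control 1, 0.52 without control 3 and 0.52 without the Hoxb13-low libraries. All 10 members stayed higher in each of these.

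DXM against Rhy set the drugs side by side, with the Rhy dose unknown. The members' median was 0.36, against 0.013 over all genes, and it was 0.19 without DXM 3 and 0.21 with a term for the Hoxb13-low libraries. Markers of fibroblasts, pericytes, endothelium, leukocytes and interstitial cells of Cajal had higher medians than the members here, as given further on. Lmod1 differed most, with a log2 fold change of 0.59 ± 0.20 (SE, n = 3 per group), and Actg2 was the only member lower in DXM, at -0.13 ± 0.33. Without DXM 2 all 10 members were higher in DXM, and without DXM 3 only 8 were. Lmod1 alone had an unadjusted p under the 0.05 threshold (0.0114) by edgeR's quasi-likelihood test, 1 of 10 members against 5.02% of all genes. Lmod1 and Smtn lay wholly above Rhy, 2 of 10 against 7.45%. No gene passed the adjusted threshold in the main edgeR fit, with 848 unadjusted, 9 adjusted in DESeq2 and 0 in either limma fit. The count of 1 was 2 without control 1 or DXM 2 and 0 without DXM 3. Among all 4 groups at once, Myh11, Acta2 and Lmod1 had an unadjusted p under 0.05, 3 of 10 members against 11.5% of all genes, and 0 passed after adjustment.

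The 2 smooth muscle actins did not keep one proportion. The count of Actg2 over that of Acta2 was 1.12, 0.901 and 1.15 in control, 1.03, 1.03 and 1.12 in model, 1.39, 1.26 and 1.19 in Rhy, and 0.881, 0.793 and 0.909 in DXM. Every Rhy library was above the other 9, and every DXM library was below all model and Rhy libraries but overlapped with control 2. The group means were 1.06 ± 0.14 in control, 1.06 ± 0.052 in model, 1.28 ± 0.10 in Rhy and 0.861 ± 0.061 in DXM (SD, n = 3). Of the 45 ratios between members, 8 set Rhy apart from all other libraries and 0 set DXM apart from all others. Of those 8, 7 hold Actg2, so they are not separate results. Between single groups, DXM lay apart from Rhy in 12 of the 45 and from model in 7, and Rhy from model in 17. The share of such ratios among other pairs of genes was not computed. The pattern of Actg2 was picked out after the values were seen and was not tested. Outside DXM, the library with little Hoxb13 had the highest ratio in its group, at 1.15 in control 3, 1.12 in model 3 and 1.39 in Rhy 1.

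**Figure D3:**
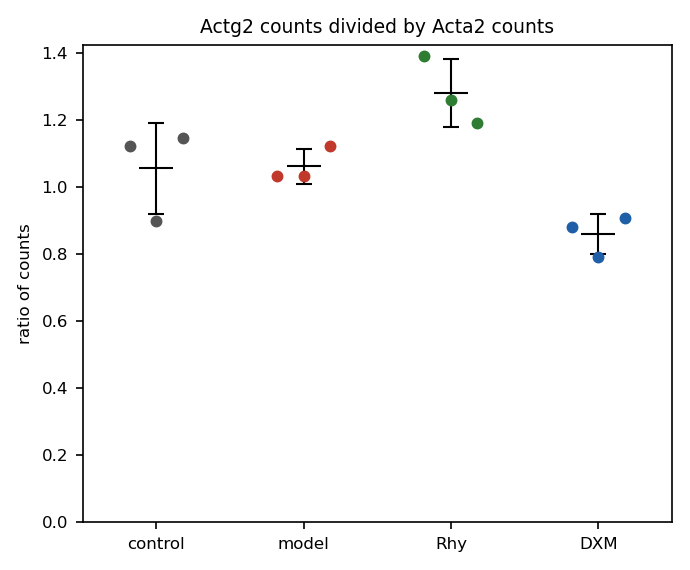
Ratio of Actg2 to Acta2 counts in each of the 12 libraries by group, with mean and SD. The Rhy libraries lie between 1.19 and 1.39 and the DXM libraries between 0.793 and 0.909.

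The members varied together across the 12 libraries, which fall into the same 4 groups. Acta2 had a correlation of 0.978 with the mean of the other 9, Cnn1 0.960 and Tagln 0.957. Synm had the lowest, 0.700, followed by Lmod1 at 0.818. Over the 45 pairs of members, r ran from 0.531 to 0.966 with a median of 0.821, as a description over 12 libraries. The genes outside the set most like the members' mean were Gm15867 (r = 0.963, at 0.139 to 1.72 CPM), Kcnmb1 (0.956), Flnc (0.951) and Nexn (0.950). Gpx8 (0.944), Enah (0.933), Wfdc1 (0.926), Hspb8 (0.924), Kcnf1 (0.921) and Lamb2 (0.921) made up the 10. Kcnmb1 encodes a subunit of a calcium-activated potassium channel of smooth muscle, Flnc a filamin and Nexn an actin-binding protein.

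Other genes of the contractile apparatus were taken from lists written from general knowledge. Among 20 further filament and anchor genes, 19 were higher in DXM than in model, their median log2 fold change was 0.47, and 6 had an unadjusted p under 0.05, against 7.69% of all genes. These 6 were Itga8, an integrin subunit, at 1.09 ± 0.49, Synpo2, an actin-bundling protein, at 0.89 ± 0.28, Nexn at 0.84 ± 0.32, Tns1, a tensin, at 0.80 ± 0.28, Flna, a filamin, at 0.64 ± 0.29 and Pdlim3 at 0.63 ± 0.22. The tropomyosins Tpm2 and Tpm1 stood at 0.70 ± 0.35 and 0.32 ± 0.21, and the light chain gene Myl6 at 0.38 ± 0.31. Among 20 genes of contraction signalling, 16 were higher, 5 with an unadjusted p under 0.05 (7.69% of all genes), and the median was 0.28. Ppp1r14a, an inhibitor of myosin phosphatase, stood at 1.14 ± 0.45, Kcnmb1 at 1.06 ± 0.31, Chrm2, a muscarinic receptor, at 0.82 ± 0.32 and Mylk, myosin light chain kinase, at 0.46 ± 0.18. Lower means were seen for Rock2 (-0.34 ± 0.19) and Rhoa (-0.32 ± 0.19), which restrain myosin phosphatase, and for the calcium pump gene Atp2a2 (-0.29 ± 0.23). Tacr2, a tachykinin receptor, had 2.09 to 4.72 CPM in control, 2.98 to 4.65 CPM in model, 4.51 to 7.07 CPM in Rhy and 9.19 to 10.6 CPM in DXM, and its log2 fold change against model was 1.43 ± 0.33. Among 10 genes of transcription control, 8 were higher, 2 with an unadjusted p under 0.05 (7.69% of all genes), and the median was 0.17. These were the forkhead genes Foxf1 at 1.01 ± 0.28 and Foxf2 at 0.77 ± 0.35, while Nkx2-3, a homeobox gene, stood at 0.92 ± 0.45 and Myocd, which encodes myocardin, at 1.39 ± 0.71, the largest value of the list, from 0.374 to 4.36 CPM. Srf stood at 0.094 ± 0.18, Mkl2 at 0.011 ± 0.20 and Gata6 at -0.21 ± 0.18. After adjustment over all genes, 0 genes of these lists passed.

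In Rhy against model the same lists gave 16 of 20 filament and anchor genes higher (median 0.28), 10 of 20 contraction signalling genes (median 0.012) and 7 of 10 transcription control genes (median 0.061). Sgca, a sarcoglycan, was the single gene of these with an unadjusted p under 0.05, against 3.72% of all genes, at a log2 fold change of 1.58 ± 0.37 and only 0.868 to 5.66 CPM.

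**Figure D4:**
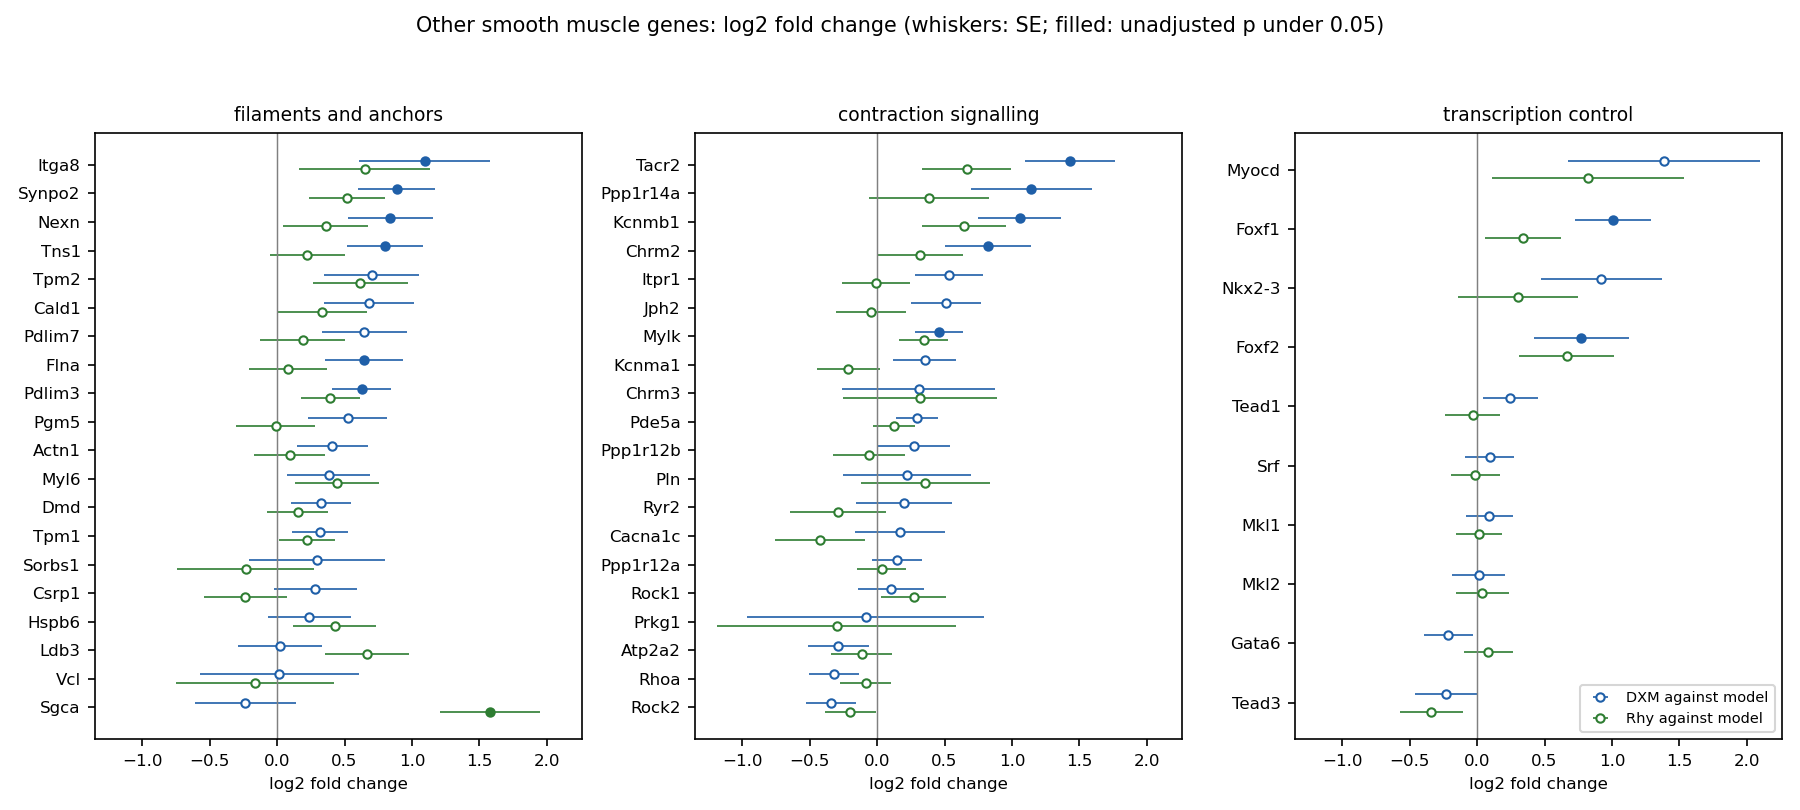
Log2 fold changes with SE of genes of 3 other smooth muscle lists in DXM against model (blue) and Rhy against model (green), filled where the unadjusted p was under 0.05. In DXM against model 19 of 20 filament and anchor genes are higher.

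Markers of other cell types also differed in level between the groups. In Rhy against model, where the members' median was 0.33, fibroblast genes were higher in 8 of 9 cases (median 0.69), 3 with an unadjusted p under 0.05, against 3.72% of all genes. Epithelial genes were higher there in 9 of 10 (median 0.33), endothelial genes in 6 of 6 (median 0.33) and pericyte genes in 6 of 8 (median 0.38), so higher values were not limited to the muscle genes. Leukocyte genes were higher in 4 of 8 (median -0.071), enteric neuron and glia genes in 4 of 10 (median -0.20) and genes of interstitial cells of Cajal in 1 of 5 (median -0.17). In DXM against model, 9 of 9 fibroblast genes were higher, 8 with an unadjusted p under 0.05, against 7.69% of all genes, at a median of 1.14, above the members' 0.68. Their summed CPM was 1218.5, 656 and 975 in control, 689, 686 and 607 in model, 447, 1228 and 1853.5 in Rhy, and 1602, 1058 and 2193.5 in DXM, with Col3a1 the most abundant. Pericyte genes were higher in 7 of 8 cases (median 0.83), endothelial genes in 6 of 6 (median 0.86) and genes of interstitial cells of Cajal in 5 of 5 (median 0.34). Enteric neuron and glia genes were higher in 2 of 10 (median -0.16), and epithelial genes in 3 of 10 (median -0.14). Epithelial summed CPM was 33044, 43136 and 26497 in control, 24659, 24582 and 31584 in model, 35200, 28768 and 34024 in Rhy, and 33606, 19596 and 19248 in DXM, led by Krt8. Leukocyte genes were higher in 6 of 8 (median 0.52), with Ptprc the most abundant. Fat cell genes were higher in 1 of 5 in DXM against model (median -0.88) and 1 of 5 in Rhy against model (median -0.11). They were higher in 3 of 5 in model against control (median 1.20) and 3 of 5 in Rhy against control (median 0.18). In DXM they were higher in 2 of 5 against control (median -0.40) and 2 of 5 against Rhy (median -0.18).

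In DXM against control, fibroblast genes were higher in 8 of 9 (median 0.76), 4 with an unadjusted p under 0.05, pericyte genes in 8 of 8 (median 0.59), endothelial genes in 6 of 6 (median 0.62) and Cajal cell genes in 2 of 5 (median -0.024). Enteric neuron and glia genes were higher in 10 of 10 (median 0.30) and leukocyte genes in 6 of 8 (median 0.26). Epithelial genes were higher in 0 of 10 (median -0.44), and 4 of them had an unadjusted p under 0.05, against 18.9% of all genes. In DXM against Rhy, fibroblast genes were higher in 9 of 9 (median 0.44), pericyte genes in 8 of 8 (median 0.56), endothelial genes in 6 of 6 (median 0.50), leukocyte genes in 8 of 8 (median 0.74), Cajal cell genes in 5 of 5 (median 0.49), enteric neuron and glia genes in 5 of 10 (median -0.022) and epithelial genes in 1 of 10 (median -0.44). In Rhy against control, fibroblast genes were higher in 6 of 9 (median 0.10), endothelial in 5 of 6 (median 0.18), pericyte in 4 of 8 (median 0.11) and enteric neuron and glia genes in 7 of 10 (median 0.39). Epithelial genes were higher there in 3 of 10 (median -0.17), Cajal cell genes in 2 of 5 (median -0.23) and leukocyte genes in 1 of 8 (median -0.62). In model against control, enteric neuron and glia genes were higher in 9 of 10 (median 0.44), while fibroblast genes were higher in 0 of 9 (median -0.47) and epithelial genes in 0 of 10 (median -0.35). Pericyte genes were higher there in 3 of 8 (median -0.35), endothelial in 1 of 6 (median -0.31), Cajal cell genes in 1 of 5 (median -0.12) and leukocyte genes in 2 of 8 (median -0.33). Of the skeletal muscle genes, the myosin gene Myh4 had 0 counts in all 12 libraries, and Acta1, the skeletal actin, averaged 19.96 CPM. Of 9 pancreatic genes 1 passed the filter, Cela1, an elastase gene, which averaged 147.67 CPM. Against control, its log2 fold change was 0.99 ± 0.40 in model, 1.06 ± 0.40 in Rhy and 1.46 ± 0.41 in DXM, and it was 0.47 ± 0.40 in DXM against model (SE). The pancreatic genes Cpa1 and Amy2a5 had 0 counts in all libraries, and the mesothelial gene Msln averaged 2.04 CPM. The part of these cell types in the members' values was not tested.

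**Figure D5:**
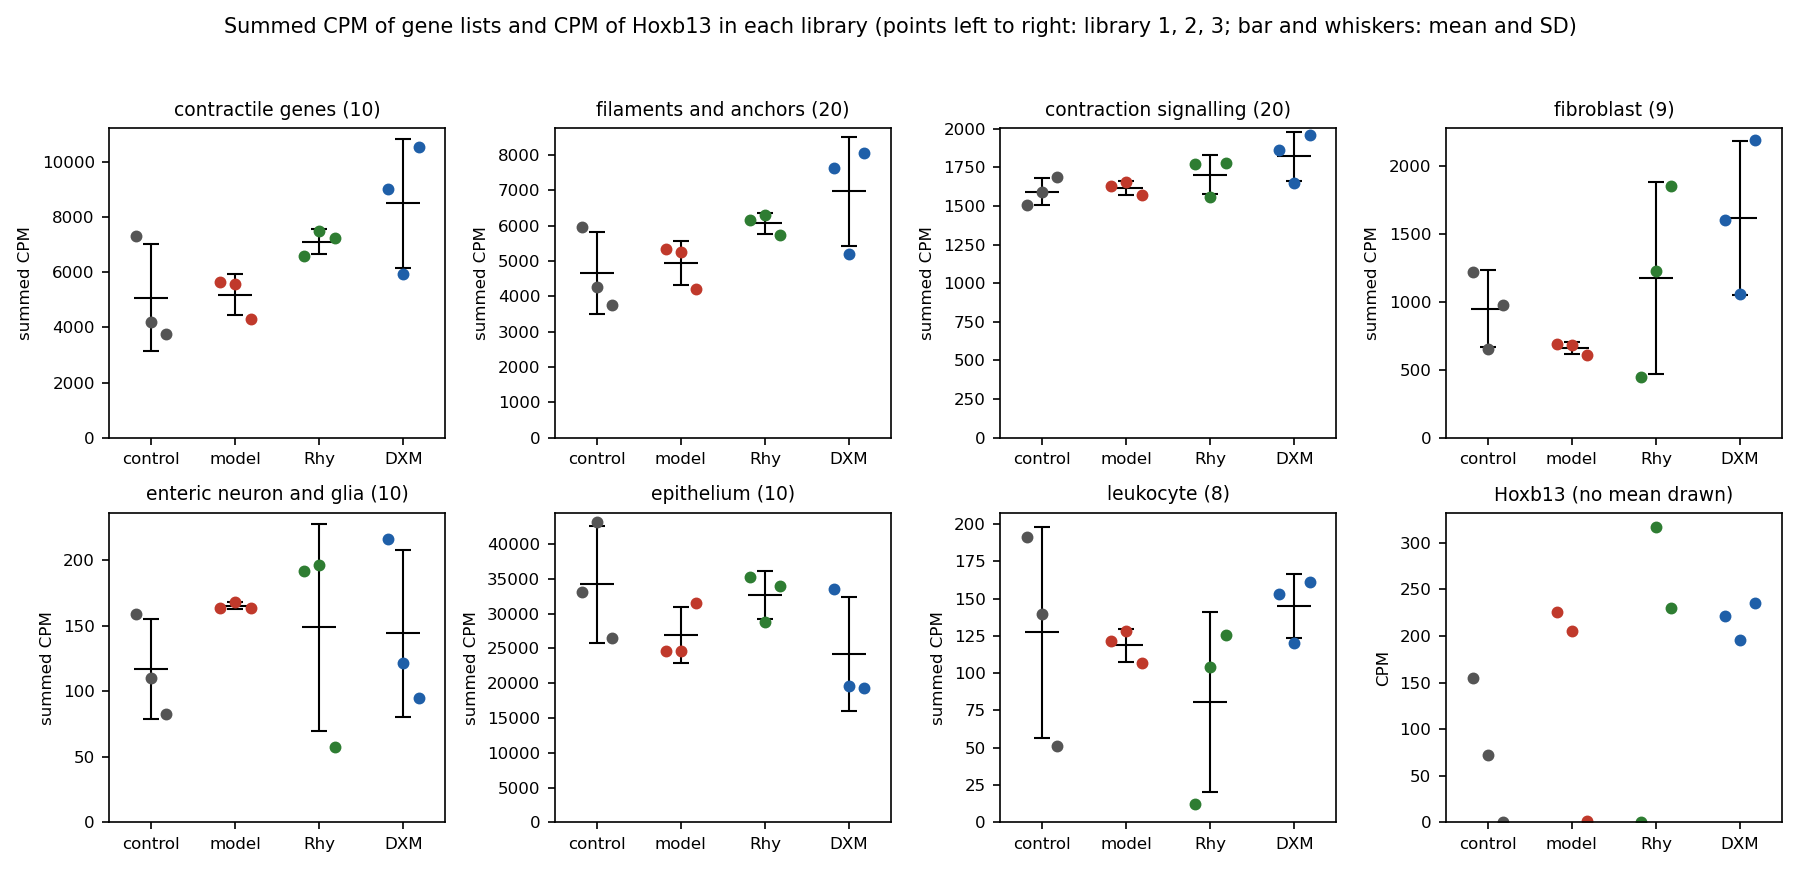
Summed CPM of the members, of 2 other smooth muscle lists and of 4 cell type lists, and CPM of Hoxb13, in each of the 12 libraries, with mean and SD except for Hoxb13. Fibroblast genes reach 2193.5 CPM in DXM 3, where the members reach their highest sum.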

How the data were processed

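Colon RNA of 12 mice was compared in 4 groups of 3. Per the labels, the authors aligned reads with HISAT2 2.0.5 to mm10, counted them per gene with featureCounts 1.5.0-p3 and used DESeq2 1.16.1. The authors deposited whole counts of reads without normalization, FPKM made from them, and the gene length in bases, an other value of the deposited table. Read length and strand use were not stated. The tests were run on the counts with edgeR 4.0.16 under R 4.3.3 (TMM, filterByExpr with a minimum count of 10, quasi-likelihood F test on group means of all 12 libraries, two-sided), with Benjamini-Hochberg adjustment over 16904 genes within each comparison. The SE was the size of the log2 fold change divided by the square root of F. Promoters and overlaps were read with Python 3.11.15. Named genes were the members, up to 4 genes of each other list with the highest mean CPM, genes of the 3 smooth muscle lists with an unadjusted p under 0.05 in model against control, Rhy against model or DXM against model, and the 10 genes whose log2 CPM (prior count 2) correlated best with the members' mean; Myocd, Nkx2-3 and genes named for 0 counts were added after their values were seen.

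The members and lists were chosen with earlier results of these data known. Alternatives were RLE and upper-quartile scaling, genes counted in any library, only the groups compared, a replicate block, DESeq2 1.42.0, limma 3.58.1 on log2(FPKM + 1) and log2(FPKM + 0.1), model 1 and model 2 summed, and each library left out. After the data were seen, 3 were added: leaving out libraries with Hoxb13 under 5 CPM, a term for them, and leaving out mitochondrially encoded genes.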

Additional observations from a re-analysis of the deposited data

How the results depend on the processing

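In the other 3 comparisons, fold changes of single members were followed only in DESeq2. In model against control, Rhy against model and DXM against model, fold changes of single members were followed under each alternative. Of these 720 values, 631 kept their direction and side of the threshold, 20 became weaker, 25 stronger and 44 reversed. The members' median log2 fold change stayed above 0 under all alternatives except in model against control. There it was 0.065, -0.057 without the Hoxb13-low libraries, and -0.17 (without control 3) to 0.46 (without control 1) with single libraries left out. Groups of 3 and the counts of Tagln limit what can be seen. Where a value changed, the cause was not tested.

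The count of members with an unadjusted p under 0.05 was 1 in Rhy against model, 3 with only the groups compared, 0 with model 1 and model 2 summed, 0 without the Hoxb13-low libraries, and 0 to 1 with single libraries left out. In DXM against model it was 4, 8 with genes of any count, 8 with only the groups compared, 1 without the Hoxb13-low libraries, and 1 to 9 with single libraries left out. In Rhy against control it was 1, 0 with only the groups compared, 2 in DESeq2, 0 without the Hoxb13-low libraries, and 0 to 7 with single libraries left out. In DXM against control it was 7, 3 with only the groups compared, 3 without the Hoxb13-low libraries, and 3 to 10 with single libraries left out. In DXM against Rhy it was 1, and 0 to 2 with single libraries left out.

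The count of genes with an adjusted p under 0.05 was 0 in the main edgeR fit in every comparison. The alternatives that follow were edgeR fits too, except those named as DESeq2 or limma. In model against control it was 1 with genes of any count, 1 with only the groups compared, 46 in DESeq2, and 0 to 1 with single libraries left out. In Rhy against model it was 5 in DESeq2, 2 in limma on log2(FPKM + 0.1), and 0 to 1 with single libraries left out. In DXM against model it was 2 with only the groups compared, 53 in DESeq2, 2 in limma on log2(FPKM + 0.1) and 2 without the Hoxb13-low libraries. In Rhy against control it was 1 with genes of any count, 33 in DESeq2, and 0 to 1 with single libraries left out. In DXM against control it was 13 with genes of any count, 1058 in DESeq2, and 0 to 4 with single libraries left out. In DXM against Rhy it was 9 in DESeq2.

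Reversals in model against control concerned 7 members, and the largest swings came with control 1 or control 3 left out. Acta2 had a log2 fold change of 0.011, -0.043 with RLE scaling, -0.042 in DESeq2, -0.043 with model 1 and model 2 summed, -0.14 without the Hoxb13-low libraries, -0.039 without mitochondrially encoded genes, and -0.24 to 0.38 with single libraries left out. Actg2 had 0.0057, and in the same order -0.048, -0.048, -0.030, -0.15, -0.045 and -0.21 to 0.46. Tagln had 0.027, and in that order -0.026, -0.026, -0.038, -0.090, -0.024 and -0.21 to 0.47. Smtn had 0.043, and in that order -0.011, -0.011, -0.021, -0.11, -0.0083 and -0.23 to 0.48. Cnn1 had 0.087, -0.024 without the Hoxb13-low libraries and -0.13 to 0.55 with single libraries left out. Myl9 had 0.15, -0.0097 without the Hoxb13-low libraries and -0.098 to 0.51 with single libraries left out. Des had -0.26, and -0.54 to 0.34 with single libraries left out. In Rhy against model, Lmod1 had -0.046, and -0.16 to 0.033, and Synm had 0.24, and -0.17 to 0.52, with single libraries left out.

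Replicate numbers did not pair the libraries. Of 18 same-number pairs, deviations from group means correlated from -0.31 to 0.363, with 6 over 0.1, and 5 of 12 libraries correlated best with their own number. With a replicate block the members' counts stayed at 1 in Rhy against model, 4 in DXM against model and 7 in DXM against control.

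With a term for the Hoxb13-low libraries, the count of members with an unadjusted p under 0.05 was 0 in model against control, 1 in Rhy against model, 3 in DXM against model, 1 in Rhy against control, 5 in DXM against control and 1 in DXM against Rhy. The members' medians were 0.086, 0.34, 0.56, 0.44, 0.65 and 0.21 in that order.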
